A study of Mus musculus with 24 samples.

Results

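Nrgn, Vgf, Bcl11b, Drd2, Ndst4 and Baiap3 are 6 neuronal genes whose transcripts stood higher in the cerebellum of Thumpd1 knockout (KO) mice than in wild-type (WT) cerebellum. They are 6 of the 55450 genes in the deposited table and were picked by symbol because they were high in KO cerebellum, so their cerebellum values are described here without a test. Thumpd1 encodes an RNA-binding adaptor that works with the acetyltransferase Nat10 to place N4-acetylcytidine on serine and leucine tRNAs. Total RNA was sequenced from cerebellum, liver and testes, and every tissue has 4 WT libraries, called WT 1 to WT 4 here, and 4 KO libraries, KO 5 to KO 8. The KO line was made in C57BL/6N eggs with Cas9 and guides that cut exon 1 and exon 4 of Thumpd1, and was kept on a C57BL/6 background. The deletion is present in every cell of the animal, with no tissue-restricted driver. The sample labels give an age range of 6 to 12 weeks, include both sexes and name littermates of like age as the usual controls. The comparison of KO with WT asks what the transcriptome of each tissue looks like when these tRNAs go unacetylated.

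The 6 genes belong to neuronal signalling and identity. Nrgn encodes neurogranin, a postsynaptic protein that binds calmodulin in dendritic spines, and is abundant in cortex, hippocampus and striatum. Vgf encodes a granin-like precursor of secreted neuropeptides and is induced by neurotrophins and activity. Bcl11b (also called Ctip2) is a zinc finger transcription factor of deep-layer cortical and striatal projection neurons, and Drd2 is the inhibitory D2 dopamine receptor of striatal neurons and of dopamine neurons themselves. Ndst4 is a Golgi enzyme that removes acetyl groups from heparan sulfate and adds sulfate in their place, and Baiap3 is a Munc13-related protein of dense-core vesicle traffic. Adult cerebellum consists mostly of granule cells, with Purkinje cells as its output neurons, and is not a tissue where neurogranin or Bcl11b is abundant.

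The promoter sequences of 3 of the genes are shown because they are genes whose transcripts stood high together in the same libraries. They are the bases upstream of both the RefSeq and the GENCODE start, taken from the RefSeq promoter table of GRCm38.p6, written 5′ to 3′ on the gene's strand. Capitals mark matches to the motifs listed after them. The Nrgn piece is chr9:37552905-37552995 on the minus strand, the Drd2 piece chr9:49340153-49340359 on the plus strand and the Baiap3 piece chr17:25256365-25256614 on the minus strand.
Nrgn: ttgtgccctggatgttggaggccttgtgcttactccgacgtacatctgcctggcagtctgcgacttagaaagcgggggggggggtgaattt
Drd2: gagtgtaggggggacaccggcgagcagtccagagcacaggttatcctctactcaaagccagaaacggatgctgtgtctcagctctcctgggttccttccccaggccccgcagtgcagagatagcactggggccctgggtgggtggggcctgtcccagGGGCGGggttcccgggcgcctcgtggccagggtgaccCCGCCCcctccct
Baiap3: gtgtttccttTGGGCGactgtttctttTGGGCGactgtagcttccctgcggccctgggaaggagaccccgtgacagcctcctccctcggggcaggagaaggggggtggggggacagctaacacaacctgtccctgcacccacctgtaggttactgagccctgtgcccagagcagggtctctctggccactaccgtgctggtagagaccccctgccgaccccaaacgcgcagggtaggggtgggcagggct

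The motifs were searched on both strands of the full 300-base windows of 4 of the genes. They were the cyclic AMP response half-site TGACG, the AP-1 site TGANTCA, the GC box GGGCGG, the CCAAT box and the Egr core TGGGCG, and the GC box and the Egr core can share bases. TGACG was in 5681 of all 27025 promoters of that length, TGANTCA in 7.93% of them, GGGCGG in 35.9%, CCAAT in 37.9% and TGGGCG in 18.6%. None of Nrgn, Bcl11b, Drd2 and Baiap3 held TGACG or TGANTCA. The Baiap3 window held 2 copies of the Egr core and 2 GC boxes, the Drd2 window 2 GC boxes, and the Nrgn window 1 GC box, 1 CCAAT box and 1 Egr core. The Bcl11b window held no match. No motif was thus shared by all 4 windows, and a match to these letters is a description and not a binding site.

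The 8 cerebellum libraries held between 16353797 and 24728845 counts. Thumpd1 itself lay between 21.8 and 24.0 CPM (counts-per-million of the library total) in WT and between 0.0 and 0.113 CPM in KO cerebellum, where no library had more than 2 counts. The granule cell genes, such as Neurod1 at 314 ± 13.9 CPM in WT, and the Purkinje cell genes, such as Pcp2 at 162 ± 6.86 CPM (SD, n = 4), were abundant in all 8 libraries. The libraries stood in neighbouring pairs. The summed level of 7 choroid plexus genes, which mark the epithelium of the choroid plexus within the adjoining ventricle, was 1726 and 1749 CPM in WT 1 and 2 but 93.0 and 95.3 in WT 3 and 4, 109 and 116 in KO 5 and 6, and 620 and 635 in KO 7 and 8. Each library was counted as a sample. No pair of libraries differed by as little as counting noise, but this cannot show that neighbouring libraries came from different animals. The study describes its replicates as biological, but the labels do not tie libraries to animals, and the p-values measure the spread between these libraries.

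Nrgn had the largest ratio of the 6 genes between KO and WT cerebellum. Its gene (ENSMUSG00000053310.11, mm10 chr9:37544492-37552904, minus strand) gave 1.82, 1.58, 2.61 and 2.14 CPM in WT 1 to 4 and 34.3, 28.5, 18.2 and 13.3 CPM in KO 5 to 8. Every KO library stood far above every WT library, with KO 5 and 6 above KO 7 and 8. The means were 2.04 ± 0.448 CPM in WT and 23.6 ± 9.53 in KO (SD, n = 4), a ratio of 11.6, and the fitted log2 difference, KO minus WT, was 3.42 ± 0.43 (SE).

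Vgf was the steadiest of the 6 within a genotype. The gene (ENSMUSG00000037428.14, mm10 chr5:137026392-137033351, plus strand) gave 13.4, 13.8, 12.0 and 12.2 CPM in WT and 37.7, 35.0, 33.4 and 29.8 CPM in KO. The groups did not overlap, and the KO libraries differed from each other far less than for Nrgn. The means were 12.9 ± 0.885 and 34.0 ± 3.29 CPM (SD, n = 4), a ratio of 2.64 and a fitted log2 difference of 1.37 ± 0.08 (SE). Per kilobase of exon, the scale on which genes can be compared, Vgf was the most abundant of the 6 in WT cerebellum at 4.33 ± 0.298 CPM per kilobase. In KO cerebellum Nrgn, at 16.2 ± 6.56, had the highest mean and Vgf followed at 11.4 ± 1.11, within the spread of Nrgn. The other 4 genes had means of at most 1.36 CPM per kilobase in either genotype.

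The transcription factor Bcl11b (ENSMUSG00000048251.15, mm10 chr12:107910403-108003602, minus strand) gave 1.13, 1.94, 1.42 and 1.33 CPM in WT and 6.33, 4.77, 4.14 and 2.79 CPM in KO. The lowest KO library, KO 8, still stood above the highest WT library. The ratio of the means, 1.45 ± 0.348 and 4.51 ± 1.47 CPM (SD, n = 4), was 3.1, with a fitted log2 difference of 1.52 ± 0.26 (SE).

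The D2 receptor Drd2 (ENSMUSG00000032259.8, mm10 chr9:49340627-49408177, plus strand) was the least abundant of the 6 in CPM. It gave 0.303, 0.647, 0.490 and 0.408 CPM in WT, which is 7 to 16 counts a library, and 2.26, 2.81, 1.48 and 1.42 CPM in KO, which is 27 to 46 counts. The groups did not overlap, but Drd2 passed the filter of at least 1 CPM in at least 4 libraries through its KO libraries alone, so a gene in its place had to differ. The other 5 genes passed the filter in both groups. The Drd2 means were 0.462 ± 0.145 and 1.99 ± 0.666 CPM (SD, n = 4), a ratio of 4.32 and a fitted log2 difference of 1.90 ± 0.30 (SE).

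Ndst4 (ENSMUSG00000027971.16, mm10 chr3:125404076-125728899, plus strand) gave 2.21, 1.90, 2.23 and 3.06 CPM in WT and 12.5, 14.5, 7.51 and 7.79 CPM in KO. The KO values fell into a higher pair (KO 5 and 6) and a lower pair (KO 7 and 8), both above WT. The ratio of the means, 2.35 ± 0.496 and 10.6 ± 3.47 CPM (SD, n = 4), was 4.5, and the fitted log2 difference was 2.08 ± 0.26 (SE).

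Baiap3 (ENSMUSG00000047507.12, mm10 chr17:25242659-25256364, minus strand) gave 1.08, 2.10, 1.91 and 1.89 CPM in WT and 11.3, 8.87, 3.78 and 3.95 CPM in KO. It split the KO libraries more than the other 5 genes did. The means were 1.74 ± 0.452 and 6.98 ± 3.73 CPM (SD, n = 4), a ratio of 4.0 and a fitted log2 difference of 1.81 ± 0.40 (SE). A stretch of 140 bases of its exons lies opposite exons of Tsr3 on the other strand, and the strand setting of the authors' counting is not given in the sources used here, so its level is uncertain to that extent.

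**Figure D1:**
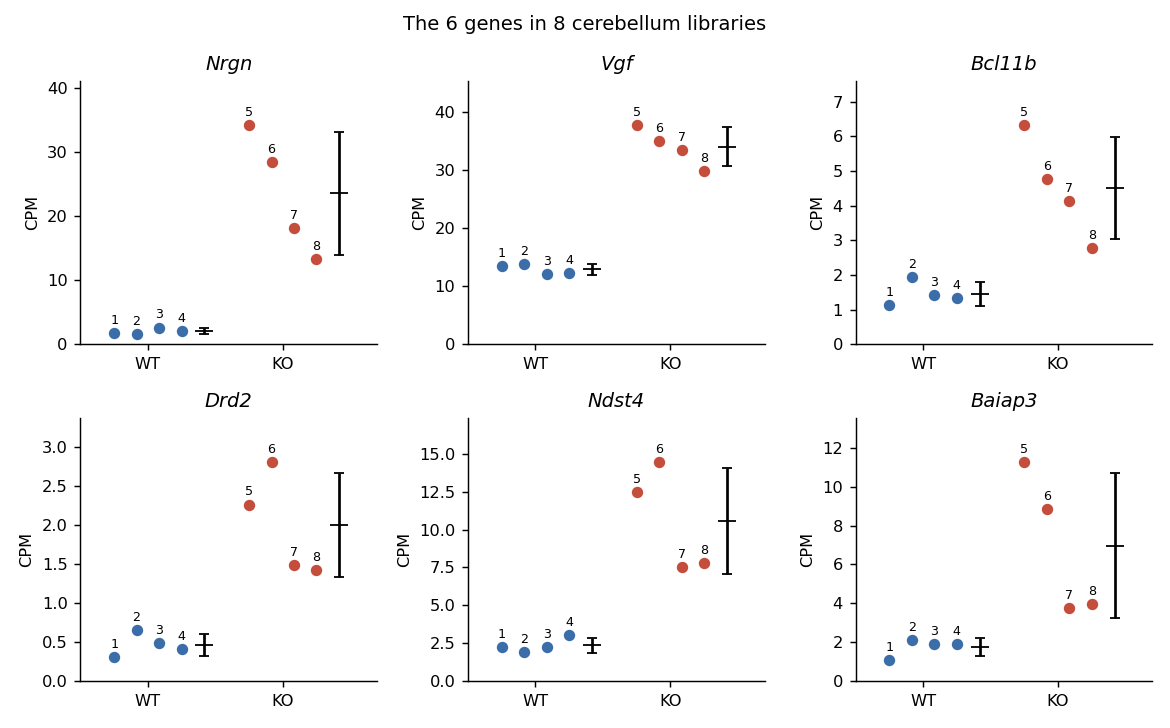
CPM (vertical axis, each panel on its own scale from 0) of each gene in the 4 WT (blue) and 4 KO (red) cerebellum libraries, numbered as in the labels, with the mean and SD in black. In every panel all KO libraries lie above all WT libraries, and KO 5 and 6 lie above KO 7 and 8.

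For all 6 genes the 4 KO libraries stood above the 4 WT libraries. Of the 16225 genes tested in cerebellum, 8.79% had that order and 0.549% had at least double the mean CPM in KO, and since the genes were chosen on this contrast nothing follows from their share. In all 6 the libraries KO 5 and 6 also both stood above KO 7 and 8, an order seen in 21.9% of tested genes and in 76.4% of the 89 genes whose mean at least doubled. The ratio of the summed pair KO 5 and 6 to the summed pair KO 7 and 8 was smallest for Vgf (1.15), followed by Bcl11b (1.61), Drd2 (1.74), Ndst4 (1.76) and Nrgn (1.99), and was largest for Baiap3 (2.62). Summed over the 6 genes, WT libraries lay between 19.9 and 22.0 CPM, whereas KO 5 to 8 held 104, 94.4, 68.5 and 59.1 CPM.

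The choroid plexus genes divide the KO libraries into the same pairs, being low in KO 5 and 6 and higher in KO 7 and 8, and they divide WT too, being low in WT 3 and 4. Among the 4 libraries where they were low, KO over WT was 13.3 for Nrgn, 5.64 for Drd2, 5.35 for Baiap3, 5.06 for Ndst4, 4.08 for Bcl11b and 3.0 for Vgf. Among the 4 libraries where choroid plexus genes were high (WT 1 and 2, KO 7 and 8), it was 9.32 for Nrgn, 3.73 for Ndst4, 3.02 for Drd2, 2.4 for Baiap3, 2.32 for Vgf and 2.24 for Bcl11b. Since every KO library stood above every WT library for these genes, the direction had to be the same on both sides of the split. Each ratio was larger where choroid plexus genes were low, which is also the side that holds KO 5 and 6. The same KO libraries that held most of the 6 genes also held most Fos, an early marker of neuronal activity, at 31.6 and 26.5 CPM in KO 5 and 6 against 5.21 and 5.11 in KO 7 and 8, and its part in the result was not tested. The 6 genes moved closely together: over the 8 libraries, each correlated with the mean of the other 5 on the log2 scale with Pearson's r between 0.952 (Baiap3) and 0.980 (Nrgn). Computed on deviations from the group means, which leaves out the genotype difference, r lay between 0.541 (Vgf) and 0.946 (Baiap3). The points share libraries and the genes were chosen for 1 pattern, so these are descriptions.

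The label under which the 6 genes were grouped is that of forebrain neurons, and some factors that define forebrain were looked up beside it. A set of 7 transcription factors of forebrain identity, namely Emx1, Emx2, Fezf2, Dlx1, Dlx2, Dlx5 and Dlx6, was taken from the marker lists after their values had been seen. Together they gave 0 to 7 counts in a WT cerebellum library and 6 to 7 in a KO library, at most 0.381 CPM, so these factors were at or near 0 in both genotypes. Since they were chosen with those values seen, they are no test of the label. Other markers of the forebrain lists, given next, were higher in KO, and the part of tissue from another brain region in the 6 genes was not tested. The genes are referred to by their names here.

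In cerebellum 6.44% of tested genes were called at an adjusted p under 0.05 (limma-voom, Benjamini-Hochberg over all genes tested), 3.93% as higher and 2.51% as lower in KO, and the median log2 difference of all tested genes was -0.01. Of 18 cortical and hippocampal excitatory neuron genes, 11 were tested and 2 rose, with a median log2 difference of 0.13. These were Ddn, which encodes the dendritic protein dendrin (0.482 ± 0.127 to 1.73 ± 0.393 CPM, log2 difference 1.68, adjusted p = 0.00187), and Camk2a, the alpha subunit of calmodulin kinase II (73.7 ± 3.04 to 101 ± 6.44 CPM, 0.46, adjusted p = 0.000327). Ddn has exons opposite an antisense gene and is uncertain, and it passed the filter through its KO libraries alone (adjusted p = 0.00549 in limma-voom with no filter). Of 15 striatal projection neuron genes 9 were tested and 2 rose, Penk (0.19, adjusted p = 0.0415) and Adcy5 (0.25, adjusted p = 0.0443), with a median of 0.13. Their number was 0 without WT 1, WT 4, KO 5, KO 7 or KO 8, 1 without WT 2 or WT 3 and 3 without KO 6. Among the tested striatal genes not called, Adora2a (-0.34, adjusted p = 0.362) and Rarb (-0.27, adjusted p = 0.096) were lower and Rgs9 (0.29, adjusted p = 0.118) was higher. In the cortical and hippocampal list, Slc30a3 (-0.34, adjusted p = 0.332) was lower and Tbr1 (0.33, adjusted p = 0.303) higher, and neither was called.

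Of 11 forebrain interneuron genes only 2 passed the filter, and the peptide gene Sst rose. It gave 0.866, 0.971, 0.545 and 0.510 CPM in WT and 4.13, 4.16, 2.15 and 2.47 CPM in KO, a log2 difference of 1.94 ± 0.28 (SE, adjusted p = 0.00184). Its WT libraries were all below 1 CPM, so it too passed the filter through KO alone, and with no filter its adjusted p was 0.00355 (limma-voom). Its KO libraries show the same high and low pair as Ndst4. Of 58 genes of the 6 region lists that were too low to be tested, 40 had at least 4 counts over the 8 libraries. Every KO library stood above every WT library in 9 of the 40 and below in 1, while of all 9039 genes under the filter with at least 4 counts 3.04% stood above and 1.28% below. The lists were made with earlier results of these data known, and the 9039 genes were not matched to the 40 in counts, so these shares are no test of the lists. The 10 genes that stood above or below were named after their values were seen. The peptide gene Tac1 gave 12 counts over the 4 WT libraries and 111 over the 4 KO libraries, Vip 2 and 38, and the forebrain factor Six3, which overlaps an antisense gene, 2 and 101. The others that stood above were Icam5 (25 and 85 counts), Drd1 (18 and 39), Cartpt (1 and 8) and 3 midbrain genes. The interneuron factor Lhx6 went the other way, with 26 counts over the WT and 8 over the KO libraries.

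Of 18 midbrain neuron genes 6 were tested and 2 rose, with a median log2 difference of 0.08. These were Tal1, a factor of midbrain inhibitory neurons (0.715 ± 0.268 to 1.72 ± 0.285 CPM, 1.14, adjusted p = 0.016), and Th, the first enzyme of dopamine synthesis (5.85 ± 0.789 to 8.20 ± 0.683 CPM, 0.46, adjusted p = 0.0323). Of the WT libraries 1 reached 1 CPM of Tal1, which passed the filter through KO (adjusted p = 0.0357 with no filter, limma-voom). The number of midbrain genes called higher was 0 without WT 1, WT 4 or KO 5 and 1 without WT 3, KO 7 or KO 8. Gata3 gave 4 counts over the WT and 52 over the KO libraries, Sox14 8 and 40, and Pou4f2 3 and 38, none of which was tested. The defining factors Foxa1 and Foxa2 were at 0 in all 8 libraries. The summed level of the 18 genes lay between 30.3 and 44.1 CPM in WT and between 34.5 and 50.8 CPM in KO, ranges that overlap, and the part of midbrain tissue in the 6 genes was not tested. The dopamine transporter Slc6a3 had 1 count over the WT and 3 over the KO libraries.

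Hindbrain and hypothalamic markers were mostly too low to judge. Of 14 hindbrain genes 1 was tested and 0 were called, with Hoxb5 at 0 in all 8 libraries, and none of 11 hypothalamic genes was tested, with Avp, Sim1 and Nkx2-1 at 0. Among the cells of the cerebellum itself, 4 of 13 granule cell genes fell and 1 rose, with a median of 0.01. Gabra6, the granule cell subunit of the GABA-A receptor, fell from 450 ± 13.0 to 376 ± 24.8 CPM (adjusted p = 0.00557) and the factor gene Neurod1 from 314 ± 13.9 to 266 ± 10.2 CPM (adjusted p = 0.00658), while the calcium-binding protein gene Calb2 rose from 226 ± 5.76 to 313 ± 19.4 CPM (adjusted p = 8.59e-05). Of 11 Purkinje genes 2 rose (median 0.06), of 8 oligodendrocyte genes 2 rose (0.16), of 7 astrocyte genes 1 rose (0.07), and 0 of 6 tested microglia genes (0.14) and 0 of 7 choroid plexus genes (-0.57) were called. Of 5 red blood cell genes 3 were tested and Alas2 fell (median -0.58). With a single library left out, the Purkinje, oligodendrocyte and astrocyte lists each ranged from 0 to 3 genes called higher, with 3 in each without KO 6, and the red blood cell list from 0 to 2 called lower, whereas 3 or 4 granule cell genes were called lower in every such fit. In bulk tissue, fewer cells of a type and less RNA per cell cannot be told apart.

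**Figure D2:**
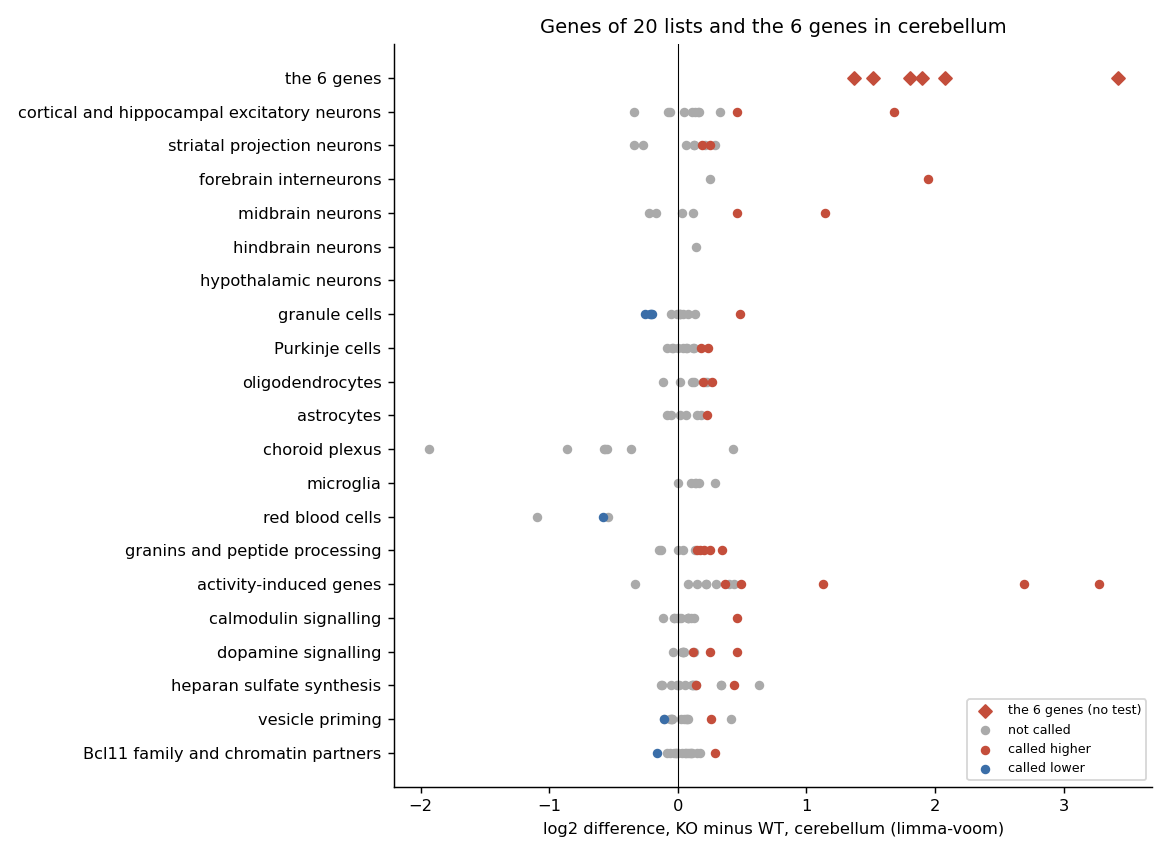
Fitted log2 difference, KO minus WT, in cerebellum for the 6 genes (diamonds, no test) and for each tested gene of 20 lists (grey, not called; red, called higher; blue, called lower). The 6 genes lie between 1.37 and 3.42, and most list genes lie near 0.

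The genes that work with the 6 were followed in 7 pathway lists. For Vgf, 5 of 10 granin and peptide processing genes rose, with a median log2 difference of 0.14. Scg2, another granin, rose from 72.4 ± 2.59 to 93.4 ± 12.4 CPM (log2 difference 0.35, adjusted p = 0.0204), and Chga (0.20), Pcsk2 (0.15), Pcsk1n (0.25) and Cpe (0.17) rose by less. All 5 moved far less than Vgf, whose own log2 difference was 1.37. The number called was 0 without WT 1, 1 without WT 3 or KO 5, 2 without WT 4 and 3 without KO 7, and none of the 5 was called with neighbouring libraries summed.

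Activity-induced genes, a class to which Vgf also belongs, held the largest fitted log2 differences among the list genes that passed the filter. Of 14 genes 13 were tested and 5 were called higher, of which Nptx2 lost its call with no filter, and the median was 0.36. With a single library left out 4 or 5 were called. The transcription factor Egr3 gave 0.347, 0.607, 0.436 and 0.459 CPM in WT and 6.84, 7.46, 3.68 and 3.95 in KO (log2 difference 3.27 ± 0.35 SE, adjusted p = 0.000306). Fosb gave 0.910, 0.607, 0.327 and 0.561 CPM in WT and 5.65, 5.93, 3.17 and 3.16 in KO (2.70 ± 0.32, adjusted p = 0.000628). Both were below 1 CPM in all 4 WT libraries and passed the filter through KO alone, and with no filter their adjusted p was 0.000508 and 0.00109 (limma-voom). Both stood above WT in all 4 KO libraries and were higher in KO 5 and 6, like the 6 genes. Egr1 (0.49, adjusted p = 0.00188) and Arc (0.36, adjusted p = 0.00905) also rose. Nptx2, which passed the filter through KO, gave 1.13 with an adjusted p of 0.0342, and of 0.0634 with no filter (limma-voom). Fos (0.22, adjusted p = 0.831) and Npas4 (0.39, adjusted p = 0.634) were not called, being above the WT mean in KO 5 and 6 and below it in KO 7 and 8.

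For Nrgn, 1 of 12 calmodulin signalling genes rose, Camk2a, and the median was 0.05, with 4 called higher without KO 6. For Drd2, 9 of 15 dopamine signalling genes were tested and 3 rose, Th, Adcy5 and the G protein subunit Gnao1 (0.12, adjusted p = 0.0303), with a median of 0.05. None was called with any single library left out other than WT 2 or KO 6, nor with neighbouring libraries summed. The other dopamine receptors Drd1, Drd3, Drd4 and Drd5 did not pass the filter. Drd1 gave 18 counts over the WT and 39 over the KO libraries.

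For Ndst4, 18 of 21 heparan sulfate synthesis genes were tested and 2 rose, Sulf2 (0.44, adjusted p = 0.0112) and Extl3 (0.14, adjusted p = 0.0333), with a median of 0.12. The number called higher was 6 without KO 6, 3 without WT 2 and 1 without any other library. Its paralogs were not called. Ndst1 stood at 133 ± 2.69 CPM in WT and 143 ± 7.19 in KO (adjusted p = 0.126), Ndst2 at 33.3 ± 2.35 and 33.7 ± 2.43 (adjusted p = 0.966), and Ndst3 at 289 ± 1.54 and 284 ± 12.1 (adjusted p = 0.898). For Baiap3, 1 of 13 vesicle priming genes rose and 1 fell, with a median of 0.02. The related Unc13b rose from a mean of 29.6 CPM to 36.1 ± 3.28 CPM (log2 difference 0.26, adjusted p = 0.0329) and Rims1 fell from 396 ± 1.52 to 365 ± 6.64 CPM (adjusted p = 0.0342). For Bcl11b, 1 of 17 genes of the Bcl11 family and its chromatin partners rose, its paralog Bcl11a (17.2 ± 0.962 to 21.2 ± 1.05 CPM, 0.29, adjusted p = 0.0203), and Rbbp4 fell (adjusted p = 0.0316), with a median of 0.06. With a single library left out, the genes called higher ranged from 0 to 1 in the vesicle priming list and from 0 to 5, the latter without KO 6, in the Bcl11 list. Genes called lower ranged from 0 to 1 and from 0 to 2, and were 0 in both lists without any library but KO 6.

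Over the 20 lists, 28 different genes were called higher and 7 lower. In 6 of the 28 the KO libraries met the filter and the WT libraries did not, and 5 of these were also called with no filter. With neighbouring libraries summed, 5 of these 35 genes were still called, namely Calb2, Camk2a, Egr3, Fosb and Gabra6. The number of list genes called higher ranged from 10 without KO 5 to 45 without KO 6 when a single library was left out. Of the list genes named, Penk, Rarb, Otx2, Neurod1, Alas2, Pcsk2, Pcsk1n, Gnao1, Sulf2, Bcl11a, Rbbp4, Gata3, Icam5, Pcp2, Drd5, Hoxb5, Emx2, Dlx1 and Dlx6, like Ddn and Six3, have exons opposite those of a gene on the other strand and are uncertain.

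**Figure D3:**
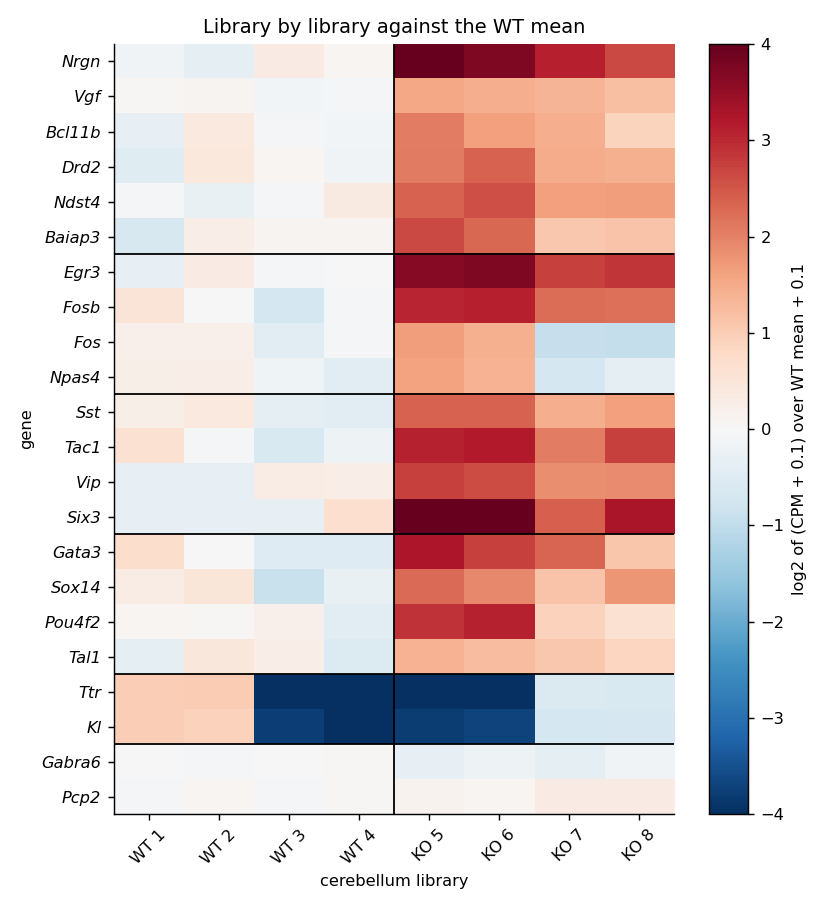
Colour gives the log2 ratio of CPM + 0.1 in each cerebellum library to the WT mean + 0.1, cut at -4 and 4, for the 6 genes and, below the lines, for activity-induced, forebrain, midbrain, choroid plexus and cerebellar genes picked after their values were seen. Egr3, Fosb and Sst follow the 6 genes across libraries, whereas Fos is high in KO 5 and 6 alone and Ttr, a choroid plexus gene, splits both genotypes.

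The genes whose levels followed the 6 most closely were ranked over 12280 genes with the mean of the 6 on the log2 scale. Over all 8 libraries the highest Pearson's r was 0.991 for Arhgap32, followed by Tanc2, Grm5, Rpl24, Rasgrf2, Kcnh5, Tenm2 and Camk2a, the last at 0.984. Among them the glutamate receptor gene Grm5 gave 10.7 to 11.5 CPM in WT and 31.3, 34.7, 21.4 and 20.8 CPM in KO 5 to 8. The exchange factor gene Rasgrf2 gave 3.55 to 4.29 CPM in WT and 17.0, 16.4, 8.33 and 8.63 in KO, and the potassium channel gene Kcnh5 gave 1.63 to 2.35 in WT and 9.39, 9.60, 5.77 and 4.90 in KO. These 3 show the same order of KO pairs as Ndst4. A high r does not mean a large change. Arhgap32 gave 180 to 183 CPM in WT and 188 to 194 in KO and was not called (log2 difference 0.08, adjusted p = 0.1235, limma-voom). Rpl24 (0.27), Tenm2 (0.32), Tanc2 (0.34) and Camk2a (0.46) also differed far less than the 6 genes. Ranked on deviations from the group means, the leading genes were instead Ddo, Alas2, Pcdhb10, Svet1, Slc38a1, Syn3, Kif5a and Nwd2, with r from 0.947 to 0.984. No gene is in both groups of 8, and with 8 libraries such values are descriptions.

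Outside the cerebellum the 6 genes were measured in tissues that played no part in choosing them. In testes, 20.5% of tested genes were called between KO and WT (9.74% higher, 10.7% lower), and of the 6 genes 5 passed the filter and 0 were called with limma-voom, edgeR or DESeq2. At an unadjusted p under 0.05 in limma-voom there was 1, Nrgn. Ndst4 gave 41.4, 34.3, 36.4 and 34.8 CPM in WT and 40.7, 39.5, 28.4 and 29.9 CPM in KO testes, so the groups overlapped (log2 difference -0.19 ± 0.13 SE, adjusted p = 0.305). Nrgn gave 7.51, 9.96, 7.56 and 8.48 CPM in WT and 7.87, 7.04, 7.32 and 8.03 in KO, again overlapping (-0.24 ± 0.11, adjusted p = 0.135). Vgf (0.44 ± 0.24, adjusted p = 0.198), Drd2 (0.11 ± 0.16, adjusted p = 0.637) and Baiap3 (-0.08 ± 0.17, adjusted p = 0.759) had overlapping groups too. Bcl11b, at 0.703 ± 0.126 CPM in WT and 0.783 ± 0.230 in KO testes, was not tested. The KO difference in cerebellum was not compared with that in testes by a test.

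In liver, where 5.91% of tested genes were called (2.79% higher, 3.12% lower), none of the 6 genes passed the filter. Vgf, Drd2 and Ndst4 were at 0 counts in all 8 liver libraries, and 3 counts, the limit that a count of 0 allows, is at most 0.111 CPM in a WT library. Nrgn stood at 0.423 ± 0.293 CPM in WT and 0.578 ± 0.313 in KO liver, Bcl11b at 0.280 ± 0.174 and 0.514 ± 0.279, and Baiap3 at 0.197 ± 0.151 and 0.246 ± 0.101 (SD, n = 4). Each pair of groups overlapped.

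**Figure D4:**
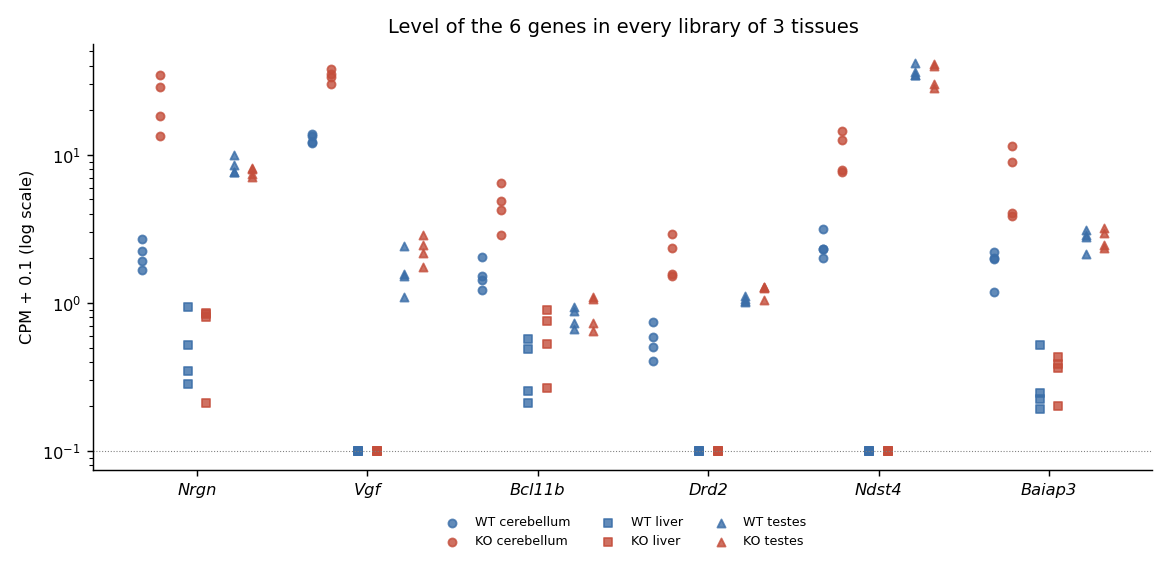
CPM + 0.1 on a log scale for each gene in all 24 libraries, with WT in blue, KO in red and the tissues as circles (cerebellum), squares (liver) and triangles (testes); the dotted line marks 0 CPM. KO cerebellum is the highest group for 5 genes, and testes is highest for Ndst4.

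Levels across groups differed from gene to gene. KO cerebellum held the highest mean of the 6 groups for Nrgn, Vgf, Bcl11b, Drd2 and Baiap3, and for each its libraries did not overlap with the group ranked next. Ndst4 was highest in testes, at 36.7 ± 3.27 CPM in WT and 34.6 ± 6.38 in KO, which overlapped, and KO cerebellum came next. Nrgn, Drd2 and Baiap3 were lower in WT cerebellum than the mean of either testes group, while Vgf and Bcl11b ranked KO cerebellum first and WT cerebellum next. Baiap3 in WT cerebellum overlapped with WT testes.

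WT tissues were compared with each other in a fit over the 12 WT libraries (limma-voom with TMM factors). Between cerebellum and liver 87.5% of tested genes were called (43.3% higher and 44.2% lower in cerebellum), and between cerebellum and testes 90.3% (39.6% higher and 50.7% lower), so a call is the common outcome there. Drd2 did not pass the filter in this fit, and Bcl11b passed through the cerebellum libraries alone. Against liver, Vgf was at least 116-fold, Ndst4 at least 21.1-fold and Drd2 at least 4.16-fold higher in WT cerebellum, taking 3 counts in a liver library as the floor. Baiap3 (log2 difference 2.03 ± 0.40 SE, adjusted p = 0.000472) and Nrgn (1.24 ± 0.38, adjusted p = 0.00924) were also higher in cerebellum. Bcl11b, which had to differ to pass the filter, gave 1.32 ± 0.40, and 1.37 with no filter (adjusted p = 0.00652, limma-voom). With quantile normalization the value was 0.11 for Baiap3, -0.33 for Nrgn and -0.46 for Bcl11b, and none was called, and the median of all genes shifted from -0.02 to -0.21.

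Against testes, Vgf was higher in WT cerebellum (2.85 ± 0.19, adjusted p = 1.39e-08), and its value was 5.62 with quantile normalization, whereas Ndst4 (-4.24 ± 0.16, adjusted p = 4.89e-11) and Nrgn (-2.32 ± 0.29, adjusted p = 7.37e-06) were lower. Baiap3 was called lower (-0.86 ± 0.38, adjusted p = 0.0497), but lost the call without any of the 4 WT cerebellum libraries or of the WT testes libraries 2, 3 and 4, with adjusted p from 0.0642 to 0.16, and with quantile normalization its value was 0.55. Bcl11b was not called (0.77 ± 0.43, adjusted p = 0.107), but was with edgeR (0.79, adjusted p = 0.0113) and with quantile normalization (3.72, adjusted p = 1.38e-08). The median of all genes in this comparison was -0.37, and 0.27 with quantile normalization.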

How the data were processed

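Total RNA was depleted of ribosomal RNA, made into libraries with a stranded kit and read as paired ends. Per the submitters' notes and methods, the authors aligned reads to mm10 with STAR and deposited RSEM expected counts for GENCODE M21 genes. Versions and strand setting are not given in the sources used here. The table is not normalized, and 0 columns were left unmatched.

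Each tissue was fitted apart. Genes with at least 1 CPM in at least 4 libraries were quantile normalized with voom and compared with limma 3.58.1 in R 4.3.3, with a Benjamini-Hochberg adjusted p threshold of 0.05. WT tissues were compared in 1 fit with TMM factors from edgeR 4.0.16. Other settings tried were DESeq2 1.42.0 and edgeR (counts rounded), other scalings, no filter, each library left out, and libraries summed or split by choroid plexus genes, the last chosen after seeing the data. The code was tested on simulated data.

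The 6 genes and the marker and pathway lists were chosen with earlier results of these data known. Of each list, up to 4 tested genes with the largest absolute log2 difference and any at 0 in all cerebellum libraries were eligible to be named. Others were named after their values were seen. Other genes of the lists are counted but not named, and a few that could be named are not reported here. Promoter sequences matched for 4 genes. The precision of low genes is limited by depth, 16353797 to 37889615 counts per library, and the limit of 3 counts covers counting error only.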

Additional observations from a re-analysis of the deposited data

Results flagged for a closer look

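Among 30 pairs of a gene and a group of 4 libraries, 3 held a library far from the others by Dixon's test at the 95% level, which chance gives in about 1 in 20 groups. Nrgn was lowest in a KO liver library at 0.11 CPM, where the other 3 held 0.701 to 0.760 CPM. Drd2 was lowest in a KO testes library at 0.953 CPM, below 1.17 to 1.18 in the others. Baiap3 was highest in a WT liver library at 0.421 CPM, above 0.0933 to 0.148 in the others.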

How the results depend on the processing

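The log2 differences of the 6 genes in cerebellum kept their sign under every alternative. The genes were chosen on this contrast and their groups did not overlap in CPM, so that sign was fixed for libraries left out, summed or split. With libraries left out the log2 differences ranged over 3.21 to 3.67 (Nrgn), 1.32 to 1.43 (Vgf), 1.35 to 1.74 (Bcl11b), 1.66 to 2.07 (Drd2), 1.93 to 2.21 (Ndst4) and 1.52 to 2.04 (Baiap3). Where choroid plexus genes were low and where they were high, respectively, they were 3.66 and 3.19 (Nrgn), 1.55 and 1.21 (Vgf), 1.88 and 1.21 (Bcl11b), 2.07 and 1.57 (Drd2), 2.27 and 1.90 (Ndst4) and 2.30 and 1.36 (Baiap3). Calls across all genes depended on the libraries. In cerebellum the 1045 called genes became 685 with no filter, 398 to 2321 with a library left out, 47 with neighbours summed and 396 among libraries low in choroid plexus genes. In liver 757 became 1408 with DESeq2, 292 to 798 with a library left out and 11 with neighbours summed, and in testes 3957 became 1741 to 4931 and 2. The 28 list genes called higher in cerebellum became 10 to 45, 5 with neighbours summed and 15 among libraries high in choroid plexus genes. The 7 called lower became 3 to 11, 1 with neighbours summed, and 3 and 21 among libraries low and high in choroid plexus genes. Summed fits hold 4 samples in place of 8, and otherwise the cause was not tested. With quantile normalization Nrgn (-0.33, adjusted p = 0.335, limma) and Bcl11b (-0.46, adjusted p = 0.131) reversed against liver, and Baiap3 (0.55, adjusted p = 0.193) against testes. Baiap3 in testes, KO minus WT, ranged from -0.22 to 0.0027 with a library left out.

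No paired analysis was possible because WT libraries are numbered 1 to 4 and KO libraries 5 to 8. Between WT cerebellum and WT liver or testes, the deviations of same-numbered libraries correlated by less than 0.1 in all 8 pairs, so pairing by number was not used (liver with testes was not computed). With a replicate block 19079 genes were called between cerebellum and liver in place of 18980, and 19742 between cerebellum and testes in place of 19603.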
